A study of Homo sapiens with 10 samples.

Results

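The 35 genes described here belong to the endoplasmic reticulum (ER) stress response and the integrated stress response. They were chosen by name, and each symbol matched 1 of the 58735 gene rows of the deposited count table. All 35 were among the 13934 genes with enough counts to be tested. By role they comprise 15 ER chaperones and folding enzymes, 3 genes of ER-associated degradation, 4 stress sensors or their transcription factor, 9 transcription factors and regulators of the integrated stress response, and 4 enzymes of serine, glycine and asparagine synthesis.

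RNA was sequenced from cells labelled HCMECs, human brain endothelial cells that the labels record only as a cell line. The siCtrl group (5 libraries) received a control small interfering RNA, and the siUSP9X group (5 libraries) received one against USP9X, a deubiquitinase that removes ubiquitin from other proteins. Transfection lasted 48 h and all 10 libraries then received Wnt3a, a Wnt ligand, for 12 h, so every comparison is between cells exposed to Wnt3a. The study's title concerns the control of Wnt signalling by USP9X in vessels of the central nervous system and their barrier. The sources used here do not give the number of siRNA sequences. No label ties the libraries of a group to separate cultures, and p-values therefore describe only the spread among these libraries, which may be technical.

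When unfolded proteins build up in the ER lumen, the chaperone BiP leaves the membrane sensors IRE1, PERK and ATF6. Activated IRE1 splices the messenger RNA of XBP1, and cleaved ATF6 and spliced XBP1 switch on chaperone and degradation genes. PERK phosphorylates the translation factor eIF2 alpha, a step shared with other stress kinases, which slows protein synthesis and raises translation of ATF4, the factor that drives genes such as DDIT3, TRIB3, CHAC1 and ASNS. Gene-level counts hold neither the splicing of XBP1 nor the phosphorylation or cleavage of these proteins, so only transcript levels are described.

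The promoters of genes in this response carry known DNA elements. A selection of 7 windows is shown, and each holds a match to a motif named below. All but that of XBP1 belong to members that passed the edgeR test below with 9 libraries. Each is the 220 bases before the gene's start in RefSeq on GRCh38.p14, printed 5′ to 3′ along the gene's own strand. Distances given below are to that RefSeq start, which can differ from the GENCODE gene coordinates also given below. By the GENCODE coordinates, the windows of CRELD2, CHAC1 and PDIA6 lie inside the gene, and those of SDF2L1 and XBP1 reach into it. PDIA6 and XBP1 each have 2 start windows in RefSeq, of which 1 that holds the element is shown. Capitals mark the letters of an exact match on either strand to 1 of 4 motifs. These are the ER stress response element ERSE (CCAAT, 9 bases, then CCACG), ERSE-II (ATTGG, 1 base, then CCACG), the XBP1 element TGACGTGG and the C/EBP-ATF core TGATGNAA.
HSPA5 chr9:125241344-125241563 (minus strand): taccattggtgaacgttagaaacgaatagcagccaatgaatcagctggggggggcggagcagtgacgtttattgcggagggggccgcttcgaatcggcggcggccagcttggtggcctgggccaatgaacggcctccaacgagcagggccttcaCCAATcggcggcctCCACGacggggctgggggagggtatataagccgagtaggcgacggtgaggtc
PDIA6 chr2:10812786-10813005 (minus strand): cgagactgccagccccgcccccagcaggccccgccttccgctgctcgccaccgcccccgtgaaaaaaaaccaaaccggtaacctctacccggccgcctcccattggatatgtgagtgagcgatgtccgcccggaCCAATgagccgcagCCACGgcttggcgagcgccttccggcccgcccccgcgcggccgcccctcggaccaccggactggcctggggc
CRELD2 chr22:49918414-49918633 (plus strand): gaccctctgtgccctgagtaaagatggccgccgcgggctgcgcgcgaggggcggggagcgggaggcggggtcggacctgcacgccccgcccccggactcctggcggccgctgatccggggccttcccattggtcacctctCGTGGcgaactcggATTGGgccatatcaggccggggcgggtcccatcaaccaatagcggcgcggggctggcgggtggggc
XBP1 chr22:28800570-28800789 (minus strand): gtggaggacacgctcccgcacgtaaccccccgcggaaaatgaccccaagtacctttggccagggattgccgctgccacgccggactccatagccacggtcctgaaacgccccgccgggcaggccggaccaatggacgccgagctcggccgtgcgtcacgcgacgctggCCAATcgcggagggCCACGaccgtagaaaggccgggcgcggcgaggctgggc
HYOU1 chr11:119057206-119057425 (minus strand): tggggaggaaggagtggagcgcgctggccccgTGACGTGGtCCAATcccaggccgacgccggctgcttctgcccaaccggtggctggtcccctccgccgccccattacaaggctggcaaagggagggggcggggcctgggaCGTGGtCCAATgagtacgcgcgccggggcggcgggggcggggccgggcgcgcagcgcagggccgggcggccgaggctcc
SDF2L1 chr22:21642082-21642301 (plus strand): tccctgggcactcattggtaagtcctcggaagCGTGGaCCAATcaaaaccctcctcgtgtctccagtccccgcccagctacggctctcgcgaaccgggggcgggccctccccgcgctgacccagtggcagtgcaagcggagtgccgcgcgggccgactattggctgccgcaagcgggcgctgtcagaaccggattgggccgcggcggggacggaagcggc
CHAC1 chr15:40953251-40953470 (plus strand): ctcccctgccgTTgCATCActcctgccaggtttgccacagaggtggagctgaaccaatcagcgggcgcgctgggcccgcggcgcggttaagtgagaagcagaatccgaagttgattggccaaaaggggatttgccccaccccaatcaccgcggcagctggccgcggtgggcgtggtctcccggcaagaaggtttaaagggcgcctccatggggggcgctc

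The ERSE stood 66 bases before the start in HSPA5, 86 in PDIA6 and 52 in XBP1, and lay 80 bases before it in the reverse orientation in CRELD2. SDF2L1 held ERSE-II, and HYOU1 held it at 79 and 185 bases, the farther copy sharing bases with a TGACGTGG match. RefSeq windows (250 bases before to 50 after the start) were found for 33 of the 35 members, but not for PDIA3 or SHMT2. These members had 46 windows. The ERSE was in 9 of the 46, from 7 members (CALR, CANX, CRELD2, HSP90B1, HSPA5, PDIA6 and XBP1). Over all 35116 windows, which include those of the members, it was in 27 (0.0769%). ERSE-II was in 3 of the 46 windows, from 3 members (HERPUD1, HYOU1 and SDF2L1), and in 0.0541% of all windows. TGACGTGG was in 1 of the 46, that of HYOU1, and in 0.729% of all windows. The C/EBP-ATF core was in 4 of the 46, from 4 members (ASNS, ATF3, CHAC1 and HERPUD1), and in 3.62% of all windows. The members with a match that are not shown are CALR, CANX, HSP90B1, HERPUD1, ASNS and ATF3. None of them passed the edgeR test below with 10 or with 9 libraries. MANF and EDEM1, which fell with 9 libraries, held no match to the 4 motifs, and SHMT2, which also fell, had no window. The windows shown are a selection, and a link between the elements and the fall was not tested. A match is a description of letters, not of a bound site.

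USP9X itself fell from 340.5 ± 48.5 counts per 1000000 counts (CPM, SD, n = 5) in siCtrl to 35.1 ± 19.8 CPM (SD, n = 5) in siUSP9X, a 9.68-fold reduction (edgeR adjusted p = 0.000403), or 12.7-fold with the 9 libraries described next. Library totals were 15958362 to 26467787 counts. The library siUSP9X replicate 2 stood apart from the other 4 of its group, also in many members, so values for the 9 libraries without it stand beside those for all 10. Over 12 endothelial markers the summed level was 236 to 299 CPM in siCtrl and 110 to 254 CPM in siUSP9X, ERG was at 0 in every library, and KDR, VWF, TEK and TIE1 had under 10 counts in total. Over 5 epithelial markers, mostly KRT8 and KRT18, it was 3310 to 4170 CPM in siCtrl and 2030 to 2750 CPM in siUSP9X. The other epithelial markers were low, with siCtrl means of 0.886 CPM for EPCAM, 0.223 for CDH1 and 0.0466 for KRT19. The endothelial sum came mostly from ESAM, ENG and EGFL7, with siCtrl means of 161, 84.0 and 27.4 CPM. Members of either list thus went both ways, and the markers do not settle the cell type. These marker sums moved with the groups compared below, and their part in the results was not tested. The 2 leukocyte markers summed to at most 0.117 CPM and the 2 astrocyte markers to at most 0.318 CPM. In such bulk libraries, fewer cells of a kind and less RNA per cell cannot be told apart.

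With all 10 libraries, 1 of the 35 members fell and none rose. The gene that fell was PDIA6, and 11 members had an unadjusted p under 0.05 in the edgeR quasi-likelihood test. A call means a Benjamini-Hochberg adjusted p under 0.05 over all tested genes. By that rule 4.09% of all tested genes rose and 3.22% fell, and the 2.86% of members that fell lies near the share of all genes that fell. In 7 members every siUSP9X library was below every siCtrl library (20% of members, against 6.85% of all tested genes): HSPA5, HYOU1, CRELD2, MANF, PDIA6, HERPUD1 and SHMT2. Only ERN1 had all siUSP9X libraries above all siCtrl libraries (2.86% of members, against 7.79% of tested genes).

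Without siUSP9X replicate 2, 8 members fell (22.9%) and 3 rose (8.57%), while 11.5% of all genes tested fell and 11.9% rose. Those that fell were the chaperones and folding genes HSPA5, HYOU1, SDF2L1, CRELD2, MANF and PDIA6, the degradation gene EDEM1 and the mitochondrial enzyme SHMT2. Those that rose were CEBPB, DDIT3 and CHAC1, all of the integrated stress response arm. DESeq2, run on all 10 libraries, called 7 members lower (20%) and 0 higher, where 7.06% of the genes it tested were lower and 8.1% higher. Its 7 were HSPA5, HYOU1, SDF2L1, CRELD2, MANF, PDIA6 and SHMT2. The median log2 fold change of siUSP9X over siCtrl was -0.06 over the members and 0.03 over all tested genes, and -0.03 and 0.01 in the 9 libraries.

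**Figure D1:**
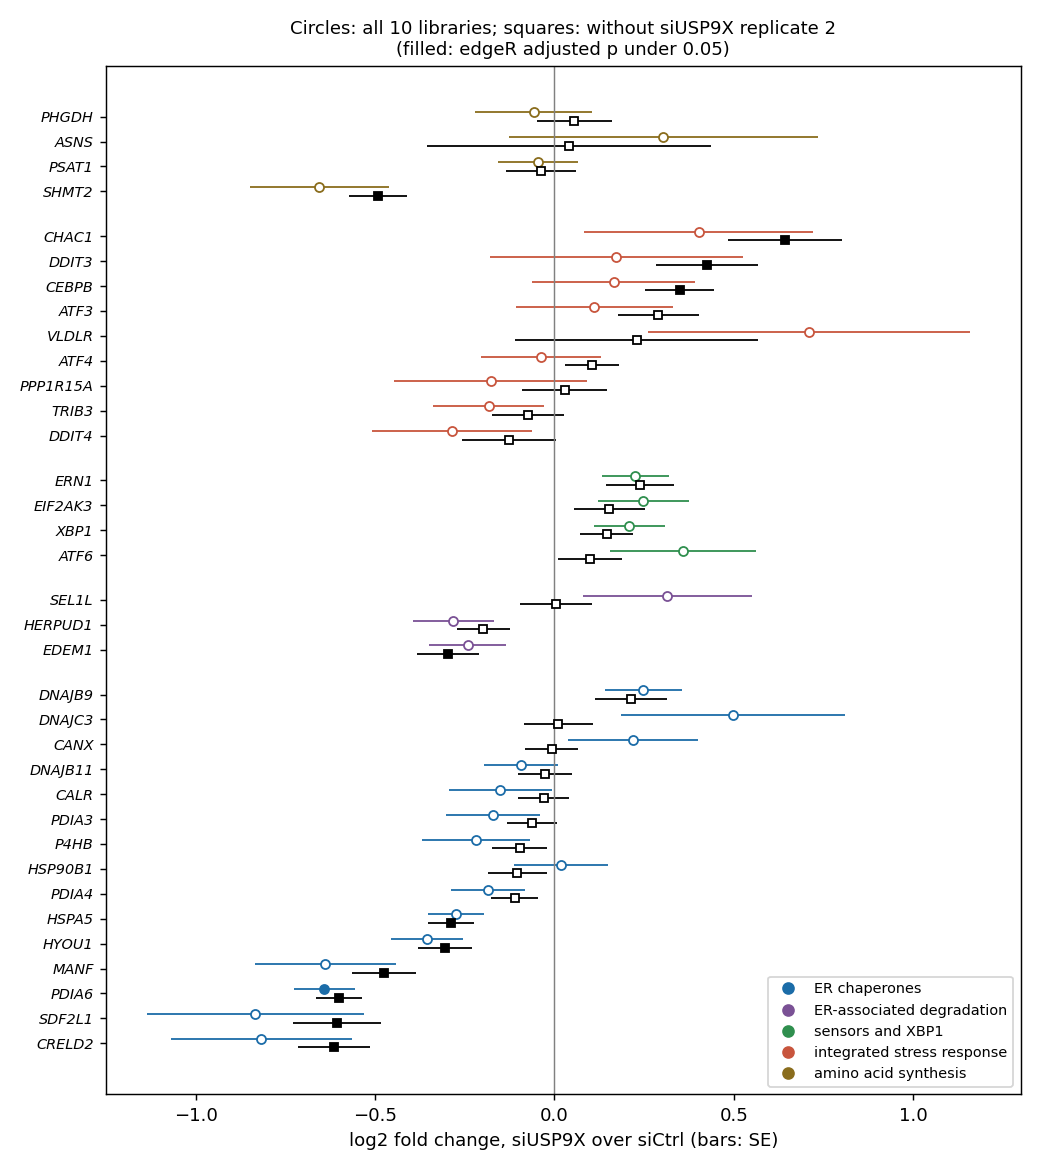
Log2 fold change of siUSP9X over siCtrl (horizontal axis) for each of the 35 members (vertical axis, grouped by role), with bars of 1 SE. Circles use all 10 libraries and squares the 9 without siUSP9X replicate 2, and filled symbols have an edgeR adjusted p under 0.05. PDIA6 is the filled circle at -0.64. The filled squares are 8 members below 0 and 3 above it.

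Among the 15 chaperones and folding enzymes, 1 fell (6.67%, against 3.22% of all tested genes) and none rose with all libraries. Without siUSP9X replicate 2, 6 fell (40.0%, against 11.5% of all tested genes) and none rose. Their median log2 fold change was -0.18 with 10 libraries and -0.10 with 9. Summed over the 15 genes, the level was 6520 to 6723 CPM in siCtrl and 5780 to 6150 CPM in siUSP9X, so the groups did not overlap. Within the arm, genes of like function differed in whether they passed.

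PDIA6 (ENSG00000143870.12, chromosome 2, 10783391 to 10837977, minus strand, GRCh38) encodes a protein disulphide isomerase, an enzyme that forms and rearranges disulphide bonds in the ER. Its levels were 246.7, 257.0, 262.4, 256.0 and 258.7 CPM in siCtrl replicates 1 to 5 and 168.4, 145.6, 170.2, 165.1 and 171.7 CPM in siUSP9X replicates 1 to 5. The siCtrl libraries lay within a narrow band and all 5 siUSP9X libraries were far below it, with replicate 2 the lowest. The mean was 256.2 ± 5.84 CPM in siCtrl and 164.2 ± 10.7 CPM in siUSP9X (SD, n = 5 each), a 1.56-fold reduction (log2 fold change -0.64, SE 0.0849, edgeR adjusted p = 0.00153). Leaving out each of the 10 libraries in turn never removed the call, and with 9 libraries the log2 fold change was -0.60 (adjusted p = 3.54e-06). With the replicate number as a block, which the data do not support as a pairing, the edgeR adjusted p was 0.0575.

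The other disulphide isomerases of the set did not pass the test. PDIA3 (ERp57, which works with the lectin chaperones) ran from 552.3 to 626.0 CPM in siCtrl and from 364.0 to 585.7 CPM in siUSP9X (log2 fold change -0.17, adjusted p = 0.397, and -0.06 with 9 libraries). PDIA4 ran from 687.3 to 734.4 CPM and from 494.7 to 699.5 CPM (-0.18, adjusted p = 0.258, and -0.11 with 9 libraries). P4HB ran from 664.4 to 842.5 CPM and from 442.2 to 794.3 CPM (-0.22, adjusted p = 0.339, and -0.10 with 9 libraries). In all 3 the lowest value was that of siUSP9X replicate 2 and the groups overlapped. Relative to these relatives, chosen after their values were seen, PDIA6 was lower in siUSP9X than in siCtrl. PDIA6 was itself the member called in these same libraries. The ratios reuse that difference, and adjustment over 4 ratios does not account for the choice. Their p-values are therefore not separate support for the fall of PDIA6. The mean log2 ratio of PDIA6 to PDIA3 went from -1.21 ± 0.0991 to -1.66 ± 0.202 (SD, n = 5 each), and exact two-sided permutation over libraries gave p = 0.00794, the smallest possible here, and 0.0159 after adjustment over 4 ratios. The ratio to PDIA4 differed by -0.45 (exact permutation p = 0.00794, adjusted 0.0159) and that to P4HB by -0.40 (exact permutation p = 0.0317, adjusted 0.0423). Without siUSP9X replicate 2 the differences were -0.54, -0.49 and -0.51, each with an exact permutation p of 0.0159, the smallest that 9 libraries can give, and 0.0212 after adjustment.

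HSPA5 (ENSG00000044574.7, chromosome 9, 125234853 to 125241330, minus strand) encodes BiP, the Hsp70-type chaperone of the ER lumen and the textbook reporter of ER stress. Its values were 1220, 1247, 1169, 1163 and 1242 CPM in siCtrl and 946.1, 1038, 992.3, 1010 and 1006 CPM in siUSP9X, replicates 1 to 5. Every siUSP9X library was below every siCtrl library, and replicate 2 was the highest of its group. The fold change was small, 1.21-fold lower (log2 -0.28, SE 0.0784), with an edgeR adjusted p of 0.0554 over 10 libraries and 0.00326 over 9 (log2 -0.29). DESeq2 (adjusted p = 0.000173) and limma-voom (adjusted p = 0.0436) called it with all 10, as did edgeR with a minimum of 5 CPM in 5 libraries (0.0382). The edgeR test did not with DESeq2 size factors (adjusted p = 0.0542), library totals (0.0554), no minimum (0.228) or the replicate block (0.238). Of the 10 fits that left out 1 library, only that without siUSP9X replicate 2 called it.

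HYOU1 (ENSG00000149428.18, chromosome 11, 119044189 to 119057202, minus strand) encodes a large Hsp70 relative that serves as nucleotide exchange factor for BiP. It measured 323.7, 298.9, 342.9, 367.1 and 363.8 CPM in siCtrl and 263.7, 229.2, 261.8, 282.3 and 289.7 CPM in siUSP9X. The groups did not overlap, the highest siUSP9X value lying just under the lowest siCtrl value. Its log2 fold change was -0.35 (SE 0.101, edgeR adjusted p = 0.0552) with 10 libraries and -0.31 (adjusted p = 0.00714) with 9. HSP90B1, the ER form of Hsp90 (GRP94), had 790.1 to 916.2 CPM in siCtrl and 705.0 to 1126 CPM in siUSP9X, with siUSP9X replicate 2 highest. Its log2 fold change was 0.02 (adjusted p = 0.936) with 10 libraries and -0.10 (adjusted p = 0.389) with 9. The log2 ratio of HSPA5 to HSP90B1 differed by -0.27 between groups (exact permutation p = 0.0635, same after adjustment), and by -0.18 without that library (exact permutation p = 0.127).

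CRELD2, MANF and SDF2L1 encode small ER proteins known to be induced by ER stress. MANF is a secreted trophic factor that binds BiP, SDF2L1 is a partner of the BiP co-chaperone DNAJB11, and CRELD2 is a resident of the ER lumen. CRELD2 (ENSG00000184164.14, chromosome 22, 49918167 to 49927540, plus strand) measured 59.79, 90.78, 73.68, 73.37 and 73.33 CPM in siCtrl and 48.96, 17.14, 44.55, 52.06 and 47.88 CPM in siUSP9X. MANF (ENSG00000145050.16, chromosome 3, 51385047 to 51389397, plus strand) measured 94.51, 117.1, 103.7, 92.58 and 98.43 CPM against 67.16, 34.18, 71.07, 83.26 and 69.42 CPM. In both genes the groups were separate and siUSP9X replicate 2 was far below the other 4. SDF2L1 (ENSG00000128228.4, chromosome 22, 21642261 to 21644298, plus strand) measured 54.78, 93.26, 79.47, 77.22 and 70.31 CPM against 49.43, 13.77, 46.43, 57.54 and 43.30 CPM. There siUSP9X replicate 4 exceeded siCtrl replicate 1, so the groups overlapped. None of the 3 passed with all libraries, where the edgeR log2 fold changes were -0.82 for CRELD2 (SE 0.252, adjusted p = 0.0705), -0.64 for MANF (SE 0.197, adjusted p = 0.0705) and -0.83 for SDF2L1 (SE 0.303, adjusted p = 0.109). With 9 libraries the reductions were smaller but passed the test, at -0.61 (SE 0.101, adjusted p = 0.000305), -0.48 (SE 0.089, adjusted p = 0.000887) and -0.61 (SE 0.123, adjusted p = 0.00175). These calls, and those of HSPA5, HYOU1, PDIA6 and SHMT2, were also made in all 9 fits that left out 1 further library.

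**Figure D2:**
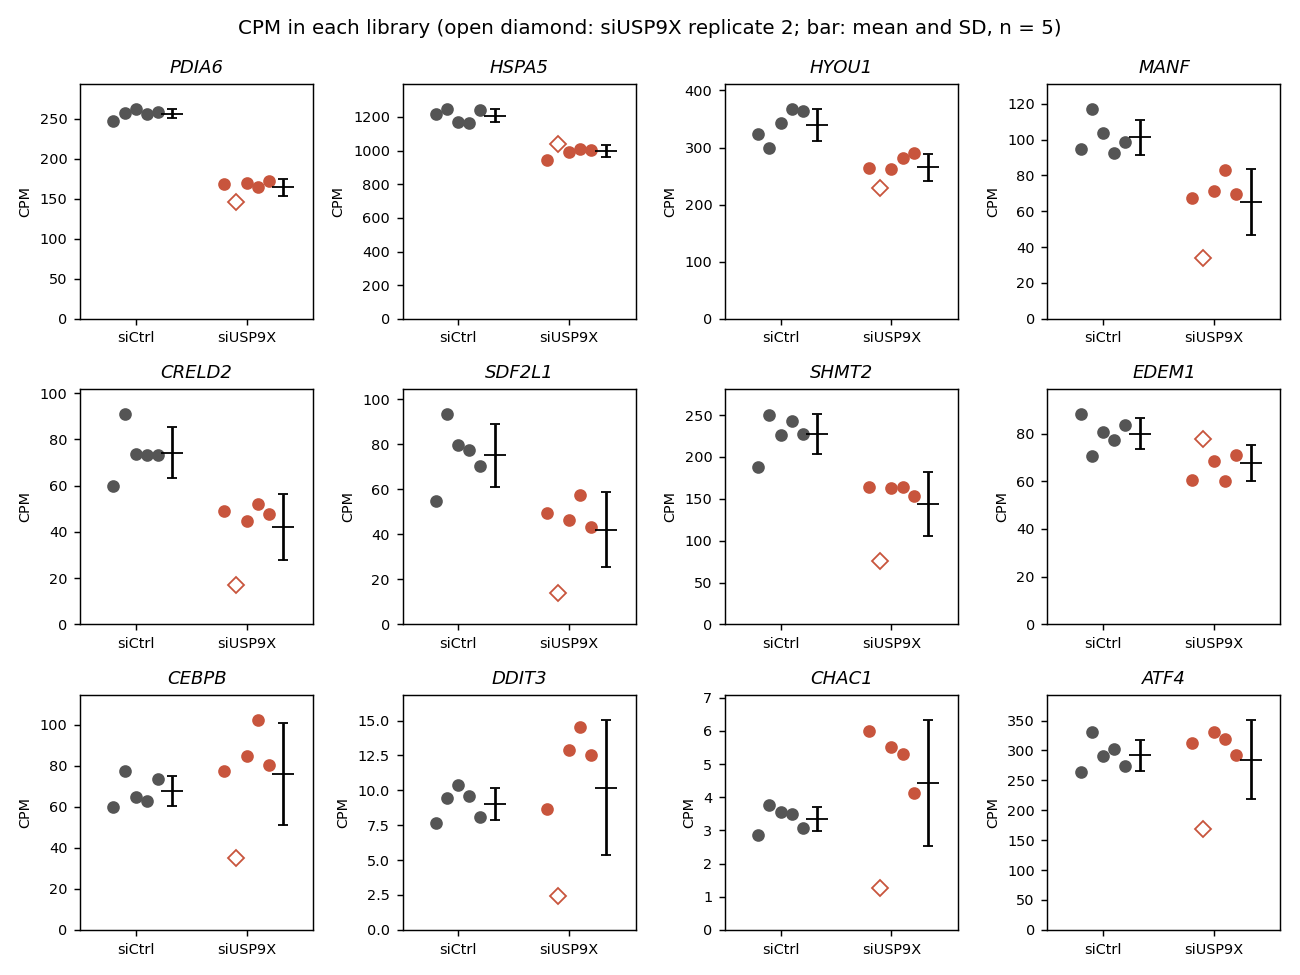
CPM (vertical axis, from 0) in each of the 5 siCtrl and 5 siUSP9X libraries for 12 members, with the mean and SD of each group beside the points. The open diamond is siUSP9X replicate 2. PDIA6 and HSPA5 separate the groups with little spread, while in CRELD2, SDF2L1, DDIT3, CHAC1 and ATF4 the diamond lies far below the other siUSP9X points.

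The J-domain co-chaperones, which hand substrates to BiP, did not pass. DNAJB9 was 15.26 to 18.90 CPM in siCtrl and 17.14 to 21.57 CPM in siUSP9X (log2 fold change 0.25, edgeR adjusted p = 0.161, and 0.21 with 9 libraries, adjusted p = 0.139). DNAJB11 had a log2 fold change of -0.09 (adjusted p = 0.552), and -0.03 with 9 libraries. DNAJC3 measured 160.5 CPM in siUSP9X replicate 2, while the remaining siUSP9X libraries held 51.29 to 55.13 CPM and siCtrl 47.04 to 64.02 CPM. Its log2 fold change was 0.50 (adjusted p = 0.302) with that library and 0.01 (adjusted p = 0.95) without it. Among the lectin chaperones, which hold glycoproteins during folding, calreticulin (CALR) had -0.15 (adjusted p = 0.493), and -0.03 with 9 libraries. Calnexin (CANX) had 0.22 (adjusted p = 0.428) and -0.01 without replicate 2. Its level was 1663 CPM in that library and 856.9 to 947.2 CPM in the rest of the group.

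No gene of ER-associated degradation, the route by which misfolded proteins are sent to the proteasome, passed with 10 libraries. Over all tested genes 4.09% rose and 3.22% fell in that fit, so a count of 0 among 3 genes says little. EDEM1, a lectin that directs misfolded glycoproteins to degradation, measured 88.04, 70.61, 80.49, 77.30 and 83.55 CPM in siCtrl and 60.47, 77.86, 68.61, 60.25 and 70.93 CPM in siUSP9X. Its groups overlapped, since siUSP9X replicate 2 exceeded siCtrl replicates 2 and 4, and siUSP9X replicate 5 exceeded siCtrl replicate 2. The log2 fold change was -0.24 (edgeR adjusted p = 0.167) and, with 9 libraries, -0.30 (SE 0.0865, adjusted p = 0.0191), a call that was lost in 3 of 9 fits, those leaving out siCtrl replicate 5, siUSP9X replicate 1 or siUSP9X replicate 4. HERPUD1, a membrane protein of the degradation complex, ranged from 67.57 to 74.76 CPM in siCtrl and from 44.79 to 64.69 CPM in siUSP9X without overlap (log2 fold change -0.28, adjusted p = 0.135, and -0.20 with 9 libraries, adjusted p = 0.0616). SEL1L, the scaffold of the HRD1 ubiquitin ligase, had 0.31 (adjusted p = 0.38) and 0.005 with 9 libraries. Its replicate 2 value was 258.0 CPM, against 103.4 to 123.3 CPM in the other 4.

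The 3 sensors and XBP1 all had fitted log2 fold changes above 0, with a median of 0.24 (0.15 with 9 libraries), and none passed in either fit. Over all tested genes 4.09% rose and 3.22% fell (11.9% and 11.5% with 9 libraries), so a count of 0 among 4 genes says little. ERN1, which encodes IRE1 alpha, measured 14.41, 12.78, 14.85, 14.03 and 14.56 CPM in siCtrl and 16.44, 16.04, 17.56, 16.12 and 16.43 CPM in siUSP9X. All siUSP9X values lay above all siCtrl values, by a small margin (log2 fold change 0.23, SE 0.094, edgeR adjusted p = 0.147, and 0.24 with 9 libraries, adjusted p = 0.0794). XBP1 measured 95.40, 109.1, 98.93, 108.8 and 103.1 CPM in siCtrl and 119.2, 140.0, 117.6, 111.6 and 107.3 CPM in siUSP9X, with overlap through siUSP9X replicate 5 (0.21, SE 0.0993, adjusted p = 0.193, and 0.15 with 9 libraries).

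EIF2AK3, which encodes PERK, measured 20.94, 17.15, 19.01, 18.19 and 21.28 CPM in siCtrl and 22.96, 28.92, 21.66, 19.14 and 22.00 CPM in siUSP9X. The groups overlapped through siUSP9X replicate 4, and replicate 2 was highest (log2 fold change 0.25, SE 0.127, edgeR adjusted p = 0.218, and 0.15 with 9 libraries). ATF6 measured 102.7, 80.42, 84.59, 84.18 and 96.78 CPM in siCtrl and 101.3, 191.1, 100.2, 84.62 and 97.98 CPM in siUSP9X. Outside replicate 2 its groups covered nearly the same range, and its log2 fold change went from 0.36 (SE 0.204, adjusted p = 0.262) with 10 libraries to 0.10 (adjusted p = 0.458) with 9.

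None of the 9 members of the integrated stress response arm passed with all libraries, and none had an unadjusted p under 0.05. Over all tested genes 4.09% rose and 3.22% fell, so a count of 0 among 9 genes says little. Without siUSP9X replicate 2, 3 of 9 rose (33.3%, against 11.9% of all tested genes) and the median log2 fold change went from 0.11 to 0.23. ATF4, the transcription factor at the centre of this arm, measured 264.1, 330.4, 290.3, 301.6 and 274.3 CPM in siCtrl and 313.3, 168.5, 330.6, 318.5 and 292.9 CPM in siUSP9X. Its groups overlapped in either case, with log2 fold changes of -0.04 (SE 0.167, edgeR adjusted p = 0.894) and 0.10 (adjusted p = 0.345).

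CHAC1, an enzyme that degrades glutathione and a target of ATF4, measured 2.872, 3.776, 3.543, 3.479 and 3.071 CPM in siCtrl and 5.988, 1.272, 5.503, 5.292 and 4.121 CPM in siUSP9X. In 4 of 5 siUSP9X libraries it was above every siCtrl library, and in replicate 2 below every one. Its log2 fold change was 0.40 (SE 0.32, edgeR adjusted p = 0.411) with 10 libraries and 0.64 (SE 0.16, adjusted p = 0.00741) with 9, a 1.56-fold increase called in all 9 fits that left out another library. The gene (ENSG00000128965.12) lies on chromosome 15 from 40952962 to 40956519, plus strand.

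DDIT3 (ENSG00000175197.12, chromosome 12, 57516588 to 57521737, minus strand) encodes CHOP, a transcription factor linked to cell death under lasting stress. It measured 7.624, 9.439, 10.41, 9.606 and 8.101 CPM in siCtrl and 8.630, 2.433, 12.88, 14.52 and 12.54 CPM in siUSP9X. Replicates 3 to 5 of siUSP9X were above all siCtrl libraries, replicate 1 was among them and replicate 2 was below all. The log2 fold change was 0.17 (SE 0.352, edgeR adjusted p = 0.76), and 0.43 (SE 0.143, adjusted p = 0.0379) with 9 libraries. That second call was made in 3 of the 9 fits leaving out 1 more library, those without siCtrl replicate 1, siCtrl replicate 3 or siUSP9X replicate 1, and limma-voom on 9 libraries gave an adjusted p of 0.056.

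CEBPB (ENSG00000172216.5, chromosome 20, 50190734 to 50192689, plus strand) encodes a C/EBP transcription factor that pairs with ATF4. It measured 60.05, 77.24, 64.79, 62.89 and 73.44 CPM in siCtrl and 77.32, 34.89, 84.60, 102.3 and 80.27 CPM in siUSP9X. All but replicate 2 of siUSP9X were above the siCtrl libraries, replicate 1 at 77.32 CPM barely so. Its log2 fold change was 0.16 (SE 0.227, edgeR adjusted p = 0.643), and 0.35 (SE 0.0971, adjusted p = 0.0146) with 9 libraries, a call lost when siUSP9X replicate 4 was also left out. ATF3, a stress-induced factor of the same family as ATF4, measured 8.459, 9.547, 9.280, 10.63 and 9.160 CPM in siCtrl and 12.15, 4.811, 11.36, 12.43 and 10.16 CPM in siUSP9X. It did not pass (0.11, adjusted p = 0.752, and 0.29 with 9 libraries, adjusted p = 0.0719).

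The other members of the arm did not pass in either fit. The pseudokinase TRIB3 had a log2 fold change of -0.18 (edgeR adjusted p = 0.44) with 10 libraries and -0.07 with 9. PPP1R15A (GADD34, the phosphatase subunit that reverses eIF2 alpha phosphorylation) had -0.18 (adjusted p = 0.673) and 0.03, its sign turning without that library. DDIT4 (an inhibitor of mTORC1) had -0.28 (adjusted p = 0.402) and -0.13. VLDLR, a lipoprotein receptor, was low, with 1.46 ± 0.419 CPM under siCtrl and 2.39 ± 1.77 CPM under siUSP9X (SD, n = 5 each; 0.71, adjusted p = 0.306, and 0.23 with 9 libraries).

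SHMT2 was the member of the amino acid arm that differed. It encodes the mitochondrial serine hydroxymethyltransferase, which makes glycine and one-carbon units from serine (ENSG00000182199.10, chromosome 12, 57229327 to 57234935, plus strand). Its values were 188.3, 250.3, 226.0, 242.8 and 227.8 CPM in siCtrl and 164.4, 75.82, 162.8, 164.3 and 153.2 CPM in siUSP9X. The groups did not overlap and 4 siUSP9X libraries lay close together, with replicate 2 far below. The log2 fold change was -0.66 (SE 0.194, edgeR adjusted p = 0.062) with 10 libraries and -0.49 (SE 0.0814, adjusted p = 0.000309) with 9, a 1.41-fold reduction. PHGDH and PSAT1, which make serine from a glycolytic intermediate, had log2 fold changes of -0.06 (adjusted p = 0.828) and -0.04 (adjusted p = 0.805), and 0.06 and -0.04 with 9 libraries. Asparagine synthetase (ASNS), a classical ATF4 target, was scarcely expressed, with 0.889 ± 0.47 CPM under siCtrl and 1.11 ± 0.501 CPM under siUSP9X (SD, n = 5 each; 0.30, adjusted p = 0.652, and 0.04 with 9 libraries).

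**Figure D3:**
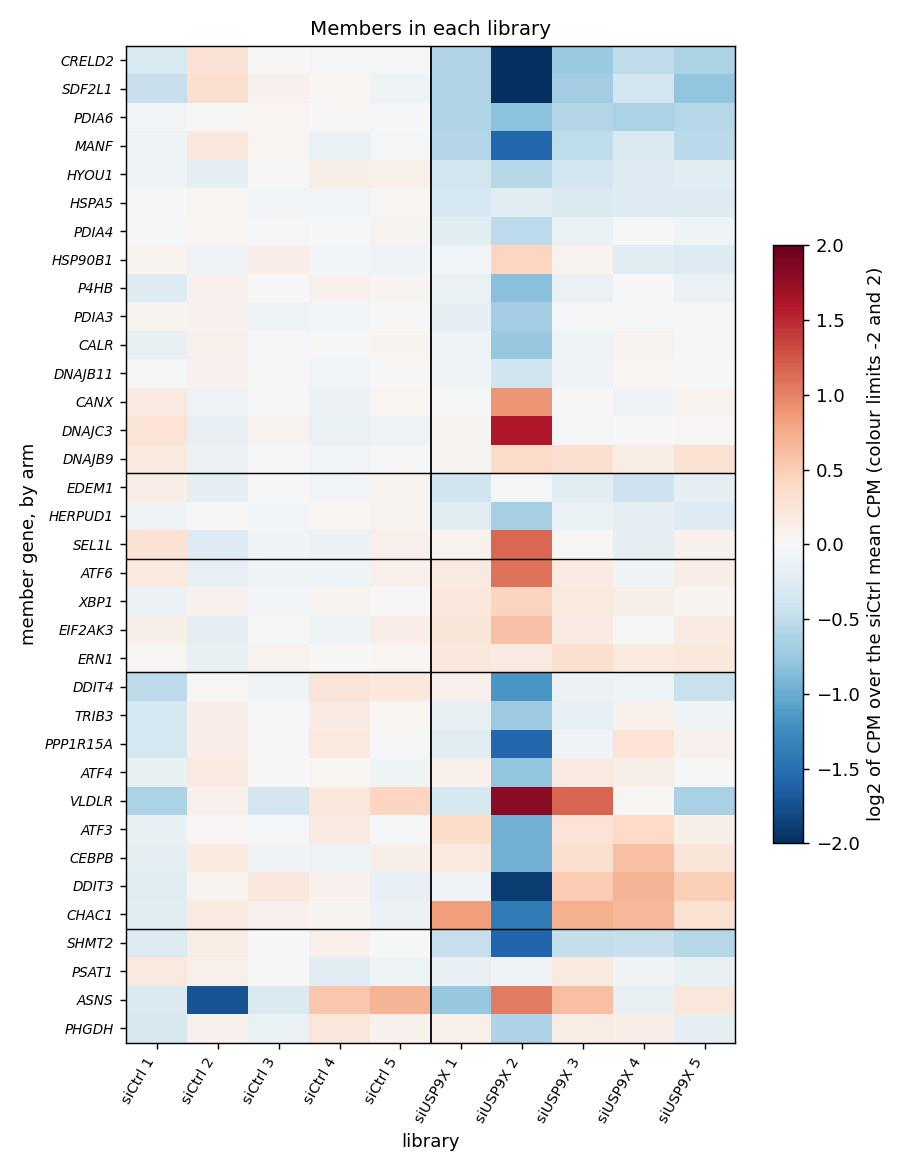
Log2 of each library's CPM over the siCtrl mean (colour, limits -2 and 2) for the 35 members (vertical axis, in 5 blocks by role) in the 10 libraries (horizontal axis). The siUSP9X columns are blue for CRELD2, SDF2L1, PDIA6, MANF, HYOU1 and HSPA5, and the column of siUSP9X replicate 2 carries the deepest blue and red.

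Dividing counts by exon length allows members to be set in order of level. In siCtrl the highest were CALR at 321.7 ± 21.3 CPM per kilobase, HSPA5 at 309.1 ± 10.3, P4HB at 303.9 ± 28.5 and HSP90B1 at 292.9 ± 20 (SD, n = 5 each), whose ranges overlapped, so their order is not resolved. PDIA4 (244.2 ± 7.28), CANX (202.5 ± 17.3), PDIA3 (158.9 ± 8.31) and ATF4 (116.2 ± 10.3) followed, with ranges that did not overlap. ERN1 (1.44 ± 0.0824), ASNS (0.357 ± 0.189) and VLDLR (0.159 ± 0.0457) were the lowest.

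**Figure D4:**
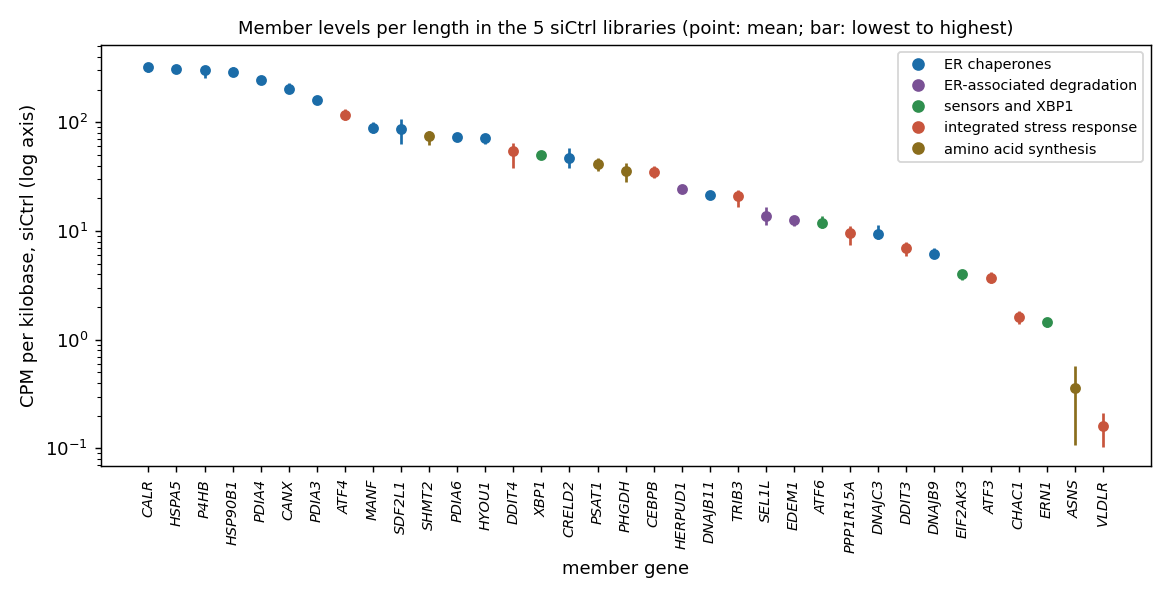
Level per exon length in the 5 siCtrl libraries (vertical axis, CPM per kilobase, log axis) for the 35 members in order of their mean (horizontal axis), points being means and bars the lowest to highest library. Chaperones fill the top 7 places, from CALR at 321.7 to PDIA3, and VLDLR is last at 0.159.

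The deviation of siUSP9X replicate 2 followed transcript length among the members. Across the 35 genes, the log2 ratio of its CPM to the median of the other 4 siUSP9X libraries (0.5 CPM added to each) had a Spearman rho of 0.714 with exon length, and across 13862 tested genes with a length rho was 0.539. These are correlations across genes of shared libraries, which are not independent replicates. Each other siUSP9X library was set against the median of the rest of that group without replicate 2. Over the 35 members, rho for these libraries ran from -0.502 to 0.292. The 3 members at least 2-fold higher in replicate 2 had a median exon length of 8576 bases, and the 10 at least 2-fold lower had 1852 bases. Short members such as DDIT3, SDF2L1, CRELD2 and MANF were low in it, and long ones such as SEL1L, DNAJC3, ATF6 and VLDLR were high. ERN1, the longest member at 9794 bases, was level with the other libraries (log2 ratio -0.03 with no CPM added), and HYOU1, at 4726 bases, was lower (-0.25). The part of RNA length or quality in any single member's value was not tested.

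**Figure D5:**
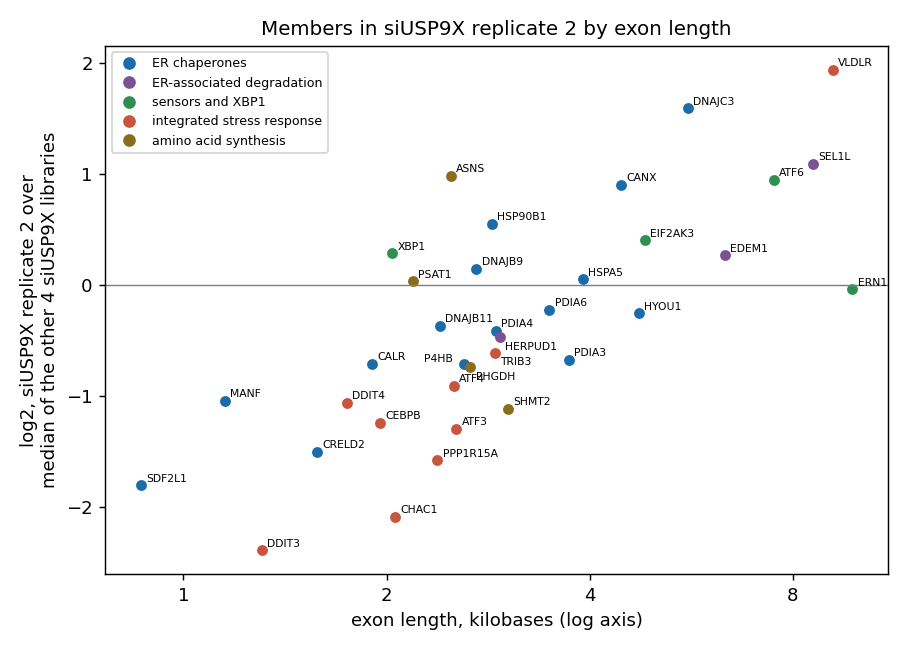
Log2 ratio of CPM in siUSP9X replicate 2 to the median of the other 4 siUSP9X libraries (vertical axis) against exon length in kilobases (horizontal log axis), each point being 1 of the 35 members coloured by role. Points climb from DDIT3 and SDF2L1 at the lower left to SEL1L and VLDLR at the upper right (Spearman rho 0.714 with 0.5 CPM added, which the plotted ratios leave out), with ERN1 at the far right near 0.

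Related genes outside the set were counted from 7 lists, and no list was tested as a set. Over all tested genes, 4.09% rose and 3.22% fell with 10 libraries, and 11.9% rose and 11.5% fell with 9. With DESeq2 on 10 libraries these shares were 8.1% and 7.06%. The small counts below are to be read beside those shares. Among 24 other ER folding genes, 1 rose and 2 fell (2 rose and 6 fell with 9 libraries). DESeq2 on 10 libraries called 1 of them higher and 4 lower. CALU, which binds calcium in the secretory pathway, fell from 534.4 ± 38.6 to 191.7 ± 36.5 CPM (SD, n = 5 each; log2 fold change -1.48, edgeR adjusted p = 0.000295). TXNDC5, another disulphide isomerase, fell by 0.89 on the log2 scale (adjusted p = 0.043), and SERP1 rose by 0.33 (adjusted p = 0.0424). The CALU call was made in all 10 fits that left out 1 library. That of TXNDC5 was made in 3 (without siCtrl replicate 1, siUSP9X replicate 2 or siUSP9X replicate 3), and that of SERP1 only without siUSP9X replicate 2. DNAJC10, the most abundant folding gene of the list that did not pass, had 0.18 (adjusted p = 0.574), and -0.08 with 9 libraries, its level being 466.2 CPM in siUSP9X replicate 2. With 9 libraries CALU had -1.60, TXNDC5 -0.80 and SERP1 0.30.

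Among 18 other degradation genes tested, 1 rose and 2 fell (1 and 3 with 9 libraries, and 1 and 2 with DESeq2 on 10). VCP, the ATPase that pulls substrates out of the ER membrane, fell from 662.5 ± 11.2 to 446.8 ± 22.8 CPM (SD, n = 5 each; log2 fold change -0.57, SE 0.0806, edgeR adjusted p = 0.0024), a call made in all 10 fits that left out 1 library. UBE2G2, a ubiquitin-conjugating enzyme of this route, fell (-0.44, adjusted p = 0.0178) and was called in 7 of those fits, not in those without siCtrl replicate 3, siCtrl replicate 5 or siUSP9X replicate 5. The ubiquitin ligase RNF139 rose (0.37, adjusted p = 0.0298) and was called in 3 of them, without siUSP9X replicates 1, 2 or 4. OS9 did not pass (-0.26, adjusted p = 0.315, and -0.12 with 9 libraries). With 9 libraries VCP had -0.58, UBE2G2 -0.47 and RNF139 0.34. None of 22 genes of translocation and signal cleavage passed edgeR with 10 libraries (4 had an unadjusted p under 0.05, and DESeq2 called 1 lower and 0 higher), and 1 rose and 3 fell with 9. SEC61A1, the channel subunit, had 0.20 (adjusted p = 0.199), and 0.13 with 9 libraries.

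Among 17 other sensor and eIF2 pathway genes tested, 1 rose and 1 fell (1 and 5 with 9 libraries, and 1 and 4 with DESeq2 on 10). PPP1R15B, the constitutive partner of the eIF2 alpha phosphatase, rose (log2 fold change 0.52, edgeR adjusted p = 0.0445). EIF2B5, a subunit of the exchange factor that recharges eIF2, fell (-0.41, adjusted p = 0.0394). Either gene kept its call in 3 of 10 such fits. For PPP1R15B these were without siCtrl replicate 1, siUSP9X replicate 1 or siUSP9X replicate 2, and for EIF2B5 without siCtrl replicate 1, siUSP9X replicate 2 or siUSP9X replicate 4. With 9 libraries PPP1R15B had 0.42 and EIF2B5 -0.36. EIF2S2 did not pass (0.06, adjusted p = 0.742, and -0.01 with 9 libraries).

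Of 21 other ATF4 targets tested, 3 rose and 1 fell with 10 libraries, and 6 rose and 2 fell with 9. DESeq2 on 10 libraries called 4 of the 21 higher and 2 lower. The amino acid transporter SLC7A1 (log2 fold change 0.51, edgeR adjusted p = 0.034), the transcription factor CEBPG (0.39, adjusted p = 0.041) and the tRNA exporter XPOT (0.62, adjusted p = 0.0439) rose, and CTH, an enzyme of cysteine synthesis, fell (-0.56, adjusted p = 0.0221). The median log2 fold change of the 21 was 0.29, and 0.21 with 9 libraries. All 4 calls were made without siUSP9X replicate 2 and without siUSP9X replicate 4. SLC7A1 was also called without siUSP9X replicate 1, and CTH without siUSP9X replicate 1 or siCtrl replicate 1, and in no other such fit were these genes called. With 9 libraries SLC7A1 had 0.42, CEBPG 0.32, XPOT 0.44 and CTH -0.51. SLC38A2 did not pass (0.48, adjusted p = 0.159, and 0.21 with 9 libraries).

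Of 12 aminoacyl-tRNA synthetases, several of which are ATF4 targets, none passed edgeR with 10 libraries, 3 had an unadjusted p under 0.05 and DESeq2 called 0, while 2 rose and 1 fell with 9. TARS had a log2 fold change of 0.26 (edgeR adjusted p = 0.299), and 0.07 with 9 libraries. Of 10 cytosolic heat shock genes, which report unfolded protein outside the ER, none passed edgeR with 10 libraries, 1 had an unadjusted p under 0.05 and DESeq2 called 0, and 2 fell with 9. HSPA8 had -0.06 (edgeR adjusted p = 0.71), and -0.16 with 9 libraries.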

How the data were processed

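The deposited table holds whole-number counts per gene for 10 libraries, not normalized. Per the labels' protocols, TRIzol RNA was made into stranded mRNA libraries. RSEM, DESeq2 and hg38 appear in the submitters' processing notes without version or role. The sources used here do not say whether the counts are rounded RSEM estimates, in which case reads shared with copies were divided beforehand. Among the members this touches mainly PDIA3, whose pseudogene PDIA3P1 had 3.88% of its count.

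Samples were grouped by the treatment label. The members, their arms, the other lists, the tests and the alternatives were chosen with earlier results of these data known. The genes named are all members, USP9X, and from each other list up to 4 passing genes with the smallest p and the most abundant one that did not pass. All genes were fitted together with the edgeR 4.0.16 quasi-likelihood test in R 4.3.3 (TMM factors, filterByExpr with a minimum count of 10, robust, group as the only term), two-sided, with Benjamini-Hochberg adjustment and a threshold of 0.05. The SE is the absolute log2 fold change over the square root of the F statistic. CPM are counts per 1000000 counts of the TMM-scaled total. Exon lengths and gene coordinates come from GENCODE 29 (GRCh38), and promoters from RefSeq.

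Alternatives were the tests DESeq2 1.42.0 and limma-voom (limma 3.58.1), scaling by DESeq2 size factors or by library totals, the replicate block, a minimum of 5 CPM in 5 libraries or no minimum, and leaving out each library. The fits to 9 libraries with 1 more left out, or with DESeq2, limma-voom or the block, were added after seeing the data. The ratios were compared by exact permutation with scipy 1.17.1. Replicates differed beyond sampling noise (chi-square per degree of freedom at least 4.92). The edgeR script was tested on simulated data.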

Additional observations from a re-analysis of the deposited data

Results flagged for a closer look

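In 14 of the 70 sets of 5 libraries (35 members in 2 groups), 1 library lay far from the other 4 by Dixon's criterion, which chance meets in about 1 of 20 sets. In 12 of them it was siUSP9X replicate 2. That library was far above the rest of its group for DNAJC3 (160.5 CPM), CANX (1663 CPM), SEL1L (258.0 CPM) and ATF6 (191.1 CPM). It was far below them for CRELD2 (17.14 CPM), PDIA3 (364.0 CPM), PDIA6 (145.6 CPM), P4HB (442.2 CPM), CALR (360.9 CPM), HERPUD1 (44.79 CPM), ATF4 (168.5 CPM) and SHMT2 (75.82 CPM). In siUSP9X replicate 3 the values of ERN1 (17.56 CPM) and PSAT1 (103.2 CPM) were far above the others.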

How the results depend on the processing

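Over all tested genes, 570 rose and 449 fell. DESeq2 gave 1134 and 988, the replicate block 34 and 57, and leaving out 1 library 170 to 1674 and 189 to 1620. The largest counts were without siUSP9X replicate 2. Among members, 0 rose and 1 fell, and leaving out 1 library gave 0 to 3 and 1 to 8. The number that fell was 2 with the filter of 5 CPM in 5 libraries, 7 with DESeq2, 3 with limma-voom and 0 with the replicate block. Over all genes, 440 of 10586 fell with that filter and 491 of 13934 with limma-voom. With 9 libraries, leaving out 1 more gave 1 to 4 members that rose and 7 to 9 that fell. Same-numbered libraries did not deviate together (correlations from -0.538 to 0.322), and 1 of 5 siCtrl libraries correlated best with its own number, so the numbers were not taken as pairs.

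The sign of HSP90B1 turned with library totals (-0.0057), no filter (-0.015), limma-voom (-0.000036) and the replicate block (-0.0016), and ran from -0.10 to 0.077 with 1 library left out. The sign of DDIT3 turned with limma-voom (-0.059). Signs also turned with 1 library left out for CANX (-0.0077 to 0.283), ATF4 (-0.097 to 0.105), PPP1R15A (-0.32 to 0.029), PSAT1 (-0.113 to 0.0078) and PHGDH (-0.13 to 0.056). None of these genes was called with 10 libraries, DDIT3 was called without siUSP9X replicate 2, and the cause was not tested. ASNS, VLDLR and CHAC1 had no value under the filter of 5 CPM. At their low levels, ASNS and VLDLR had the largest SEs of all members (0.43 and 0.449), which limits what can be said of them.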
